A study of Arabidopsis thaliana with 6 samples.

Results

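The NIGT1/HHO repressors and the genes of nitrate uptake and reduction were described as 10 loci of the 33602 listed for each plant. The loci were taken by identifier and fall into 3 roles: 6 NIGT1/HHO transcription factor genes (HRS1 AT1G13300, HHO1 AT3G25790, HHO2 AT1G68670, HHO3 AT1G25550, HHO5 AT4G37180 and HHO6 AT1G49560), 3 enzyme genes of nitrate reduction (NIA1 AT1G77760, NIA2 AT1G37130 and NIR1 AT2G15620) and the nitrate transporter gene NRT1.1 (AT1G12110). Read counts came from 3 wild-type Arabidopsis thaliana plants of accession Columbia-0 (plants 22, 23 and 24) and 3 plants of an isogenic msh1 memory line in the same accession (plants 31, 32 and 33), with 1 library per plant. As background, MSH1 encodes a plastid and mitochondrial DNA maintenance protein, and memory plants descend from plants in which it was suppressed. The labels name 1 memory line, so line and memory state cannot be told apart. Per the labels, all 6 plants were whole plants frozen at early bolting, grown on peat mix at 22 °C under 120 to 150 µmol per square metre per second of light, with no further treatment and no age in days.

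As background, plants take up nitrate through transporters, reduce it to nitrite with nitrate reductase (NIA1, NIA2) in the cytosol and to ammonium with nitrite reductase (NIR1) in the plastid, and pass the ammonium to glutamine synthetase. Nitrate itself acts as a signal: NRT1.1 senses it as well as carrying it, and NLP transcription factors such as NLP7 activate nitrate-responsive genes. The NIGT1/HHO proteins are GARP-type repressors that nitrate induces, that bind GAATC-like sites, and that lower the expression of high-affinity NRT2 transporter genes and of their own genes.

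Library totals lay between 4060216 and 5806617 counts, so 1 CPM (counts per 1000000, with libraries scaled by the trimmed mean of M values, TMM) stood for 4.33 to 5.75 counts. A count of 0 in a library allowed up to 0.522 to 0.694 CPM (3 counts, counting error only). Of 16928 genes tested with edgeR's quasi-likelihood test, 308 (1.82%) passed an adjusted p of 0.05, 76 (0.449%) of them higher and 232 (1.37%) lower in memory plants. With library totals in place of TMM the split was 98 higher and 173 lower. Wild-type plant 23 stood apart from plants 22 and 24, with a chi-square per degree of freedom of 12.6 and 16.1 against them, where the other pairs within a group gave 3.12 to 6.16. Without plant 23 the split was 457 higher and 562 lower, and without plant 31, 32 or 33 only 34, 65 and 38 genes passed in all. The leaf genes RBCS1A, CAB3, LHCB2.1 and RCA summed to between 28815 and 40287 CPM in every plant, while 10 root markers (CASP1 to CASP5, COBL9, EXPA7, LRX1, PRP3 and IRT1) summed to at most 3 reads in any plant, so the defining markers of root were at or near 0 in plants labelled as whole.

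Of the 10 loci, 8 had enough reads to be tested, 1 fell in memory plants and 7 did not pass. The 1 that fell was HHO3, the repressor gene also called NIGT1.1, which stood at 0.482 of its wild-type level. The genes for both steps of nitrate reduction and for NRT1.1 had overlapping levels in the groups. Among the 8 tested loci, 4 had log2 fold changes above 0 and 4 below, with a median of 0.01 against a median of 0.008 over all genes tested. The 1 call among 8 (12.5%) stands against 1.82% of all genes tested called in either direction, and it rests on 1 gene. Without plant 31 or plant 32 none of the 8 passed. At an unadjusted p under 0.05 HHO3 was alone among the 8 with all plants, a share (12.5%) near the 12.8% of all genes tested.

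**Figure D1:**
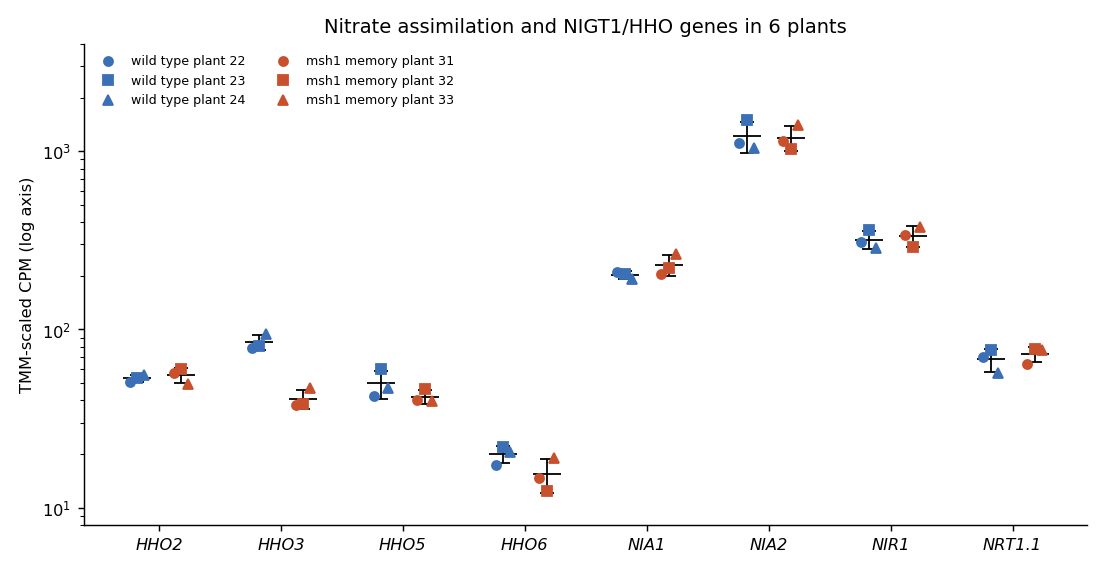
TMM-scaled CPM (log axis) of the 8 tested loci in each of 6 plants; points are plants, black marks the mean and SD of 3 plants. HHO3 is the locus whose memory plants (37.8 to 46.7 CPM) all lie below the wild-type plants (79.2 to 93.8 CPM); in the other 7 the groups overlap.

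HHO3 (AT1G25550, chromosome 1, 8976326 to 8978305, plus strand, TAIR10.1) stood at 79.2, 80.8 and 93.8 CPM in wild-type plants 22, 23 and 24 and at 37.8, 38.0 and 46.7 CPM in memory plants 31, 32 and 33. Every memory plant lay below every wild-type plant. Groups did not overlap for 19.7% of all genes tested, 10.2% with memory plants lower. The means were 84.6 ± 8.01 and 40.8 ± 5.07 CPM (SD, n = 3 each), which gave a log2 fold change of -1.05 (SE 0.147, edgeR adjusted p = 0.0044). The 95% interval of the fold was 0.387 to 0.602 of the wild-type level. The counts behind these values were 440, 418 and 539 reads in wild type and 177, 189 and 202 reads in memory plants. Without plant 31 or plant 32 the call ended (edgeR adjusted p = 0.0638 and 0.0523) at log2 fold changes of -0.999 and -0.995. Without plant 24, its highest, HHO3 passed at a log2 fold change of -0.97 (edgeR adjusted p = 0.0114).

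The other tested HHO genes had overlapping groups. HHO2, or NIGT1.2, stood at 50.6, 53.2 and 55.7 CPM in wild type and at 57.3, 59.9 and 49.2 CPM in memory plants. Its groups overlapped, with a log2 fold change of 0.06 and a 95% interval of the fold from 0.85 to 1.28 (edgeR adjusted p = 0.897). HHO5, whose protein is known to act in the floral meristem, stood at 42.5, 59.7 and 47.2 CPM in wild type and at 40.0, 46.1 and 39.5 CPM in memory plants. Wild-type plant 23 was its highest and the groups overlapped, with a log2 fold change of -0.25 (interval of the fold 0.662 to 1.07, edgeR adjusted p = 0.576). HHO6 was the lowest of the tested repressor genes, at 17.5, 21.8 and 20.5 CPM in wild type and 14.7, 12.5 and 19.0 CPM in memory plants. Memory plant 33 lay above wild-type plant 22, and the log2 fold change was -0.38 (interval of the fold 0.568 to 1.04, edgeR adjusted p = 0.482). None of HHO2, HHO5 and HHO6 passed the test.

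HRS1 and HHO1, the repressor genes known for their roles in roots under phosphate and nitrate supply, were not detectable at this depth in nearly every plant. HRS1 had 5 reads in wild-type plant 24 (0.87 CPM) and 0 in the other 5 plants, and HHO1 had 0 in all 6. Both were left out of the test by the low-count filter. EFM, a floral repressor gene of the same family that is not among the 10 loci, stood at 6.15 ± 2.32 and 4.67 ± 1.76 CPM (SD, n = 3 each) and did not pass (edgeR adjusted p = 0.735).

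Because ratios of reads within a library do not depend on how libraries are scaled, HHO3 was also set against each tested relative. The log2 ratio of HHO3 to HHO2 reads was 0.65, 0.60 and 0.75 in wild-type plants and -0.60, -0.66 and -0.08 in memory plants. HHO3 thus had more reads than HHO2 in each wild-type plant and fewer in each memory plant, though narrowly in plant 33 (202 against 213 reads). The mean difference was -1.11 for HHO2, -0.81 for HHO5 and -0.66 for HHO6, and in none of the 3 ratios did the groups overlap. Exact two-sided permutation tests gave p = 0.1 for each ratio, the smallest that 3 plants against 3 allow, also after adjustment over the 3 ratios. The ratios were chosen after the values were seen and all 3 share HHO3, so these tests add no separate support. Per kilobase of exon, HHO3 made up 41.9%, 37.6% and 43.1% of the summed level of the 6 HHO genes in wild type and 25.4%, 24.5% and 30.3% in memory plants. The summed level itself averaged 115.2 ± 8.81 CPM per kb in the wild-type plants, against 84.8 ± 1.9 in the memory group (SD, n = 3 each). HHO3 carried most of this difference: without it the sum was 61.1, 74.6 and 68.9 CPM per kb in wild type and 61.7, 65.2 and 59.6 CPM per kb in memory plants, and the groups overlapped.

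**Figure D2:**
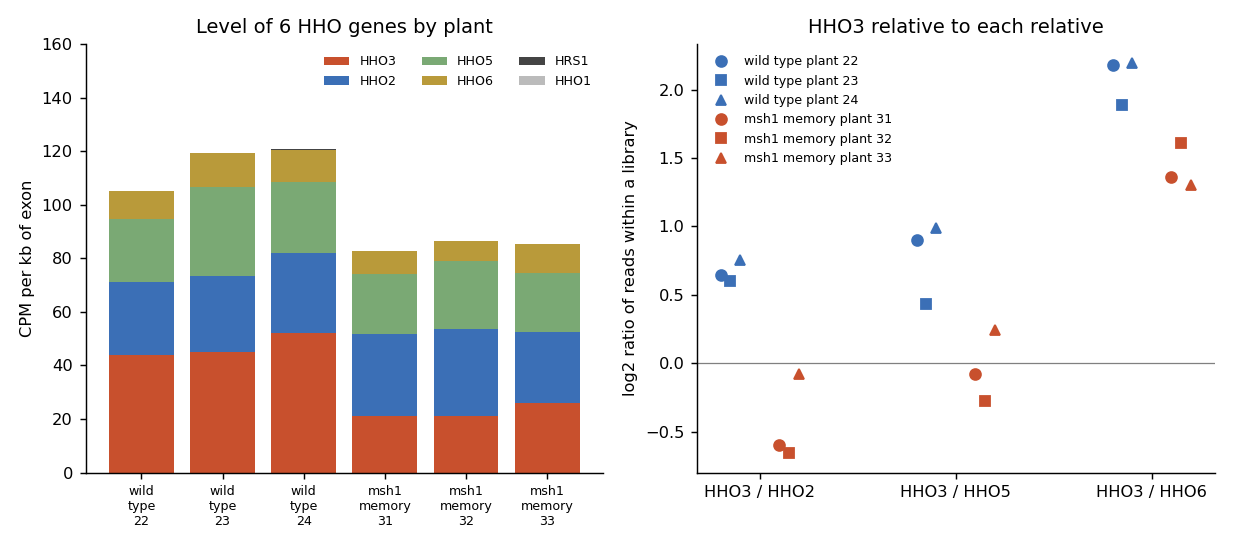
Left, summed level of the 6 HHO genes in CPM per kb of exon, stacked by gene for each plant; right, log2 ratio of HHO3 reads to HHO2, HHO5 or HHO6 reads within each library. The stacks are 105.0 to 121.0 in wild-type plants and 82.7 to 86.3 in memory plants, and the HHO3 to HHO2 ratio lies above 0 in wild-type plants and below 0 in memory plants.

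The sequences around the gene starts of HHO3 and HHO2 are shown because the read ratio of these relatives differed between the groups. Each runs from 250 bases before to 50 bases after the RefSeq gene start (TAIR10.1, plus strand; chr1:8976076-8976375 for HHO3 and chr1:25781551-25781850 for HHO2), and capitals mark matches, on either strand, to GAATC and to the palindrome GAATATTC, motifs reported for NIGT1/HHO binding.
HHO3: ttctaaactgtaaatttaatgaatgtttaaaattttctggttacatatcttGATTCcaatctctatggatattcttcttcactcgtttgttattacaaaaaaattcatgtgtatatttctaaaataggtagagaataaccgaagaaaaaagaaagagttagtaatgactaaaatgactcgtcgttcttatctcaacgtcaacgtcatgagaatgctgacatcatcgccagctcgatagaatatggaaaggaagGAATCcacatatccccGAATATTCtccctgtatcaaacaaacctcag
HHO2: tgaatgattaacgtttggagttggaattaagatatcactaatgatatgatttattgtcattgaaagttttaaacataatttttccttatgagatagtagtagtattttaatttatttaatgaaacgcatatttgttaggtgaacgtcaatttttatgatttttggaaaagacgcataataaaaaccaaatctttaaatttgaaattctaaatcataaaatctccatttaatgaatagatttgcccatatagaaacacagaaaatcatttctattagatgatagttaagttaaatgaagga

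HHO3 held 2 matches to GAATC and 1 to the palindrome in this window, and HHO2 held none. HHO3 shared the pair with HRS1 and HHO1, so the 60 bases around the pair are shown for the 3 genes, with the 2 motifs in capitals (plus strand; chr1:4556628-4556687 for HRS1, chr3:9412894-9412953 for HHO1 and chr1:8976316-8976375 for HHO3).
HRS1: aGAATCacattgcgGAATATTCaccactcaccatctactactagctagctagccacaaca
HHO1: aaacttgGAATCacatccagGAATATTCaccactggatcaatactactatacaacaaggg
HHO3: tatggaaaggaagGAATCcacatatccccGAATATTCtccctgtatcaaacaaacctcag

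The motifs were 8 bases apart in HRS1 and HHO1 and 11 apart in HHO3. From the first base of GAATC to 10 bases past the palindrome, 24 of 31 bases were identical between HRS1 and HHO1. This count includes the bases of both motifs, which are identical by definition, and no background was counted for it. The palindrome began 236 and 138 bases before the gene start in HRS1 and HHO1, and at base 20 after it in HHO3. Over 27443 promoters of protein-coding nuclear genes over the same 300 bases, 1.01% held GAATATTC, 45.1% held GAATC and 0.525% held both. Of the promoters with GAATATTC, 52% also held GAATC, near its share of all promoters. These shares count GAATC anywhere in the 300 bases, not only just before the palindrome. GAATC was also found in HHO5 (4 matches), HHO6, NIA1, NIA2 and NIR1 (1 each), but not in NRT1.1. A match describes letters in this window and is no binding site by itself.

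Further motifs searched on both strands were TGACCCTT (an arm of the nitrate-responsive element; in 0.51% of promoters), AAATATCT (the evening element of the clock; 5.65%) and CACGTG (the G-box; 7.68%). None of the 10 loci held any of these in the window.

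**Figure D3:**
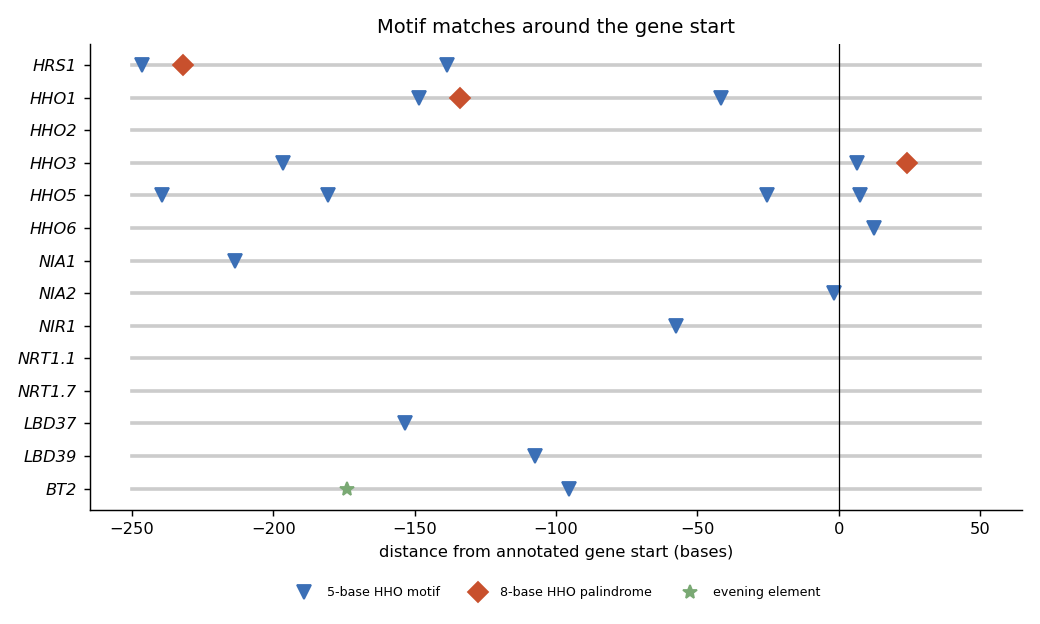
Positions of motif matches in the 300 bases around the gene start (x axis, distance in bases; 0 is the annotated start) for the 10 loci and for NRT1.7, LBD37, LBD39 and BT2. The 8-base palindrome appears in HRS1, HHO1 and HHO3, each time with a 5-base motif just before it, and the evening element in BT2.

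The genes of nitrate reduction did not differ detectably. NIA2, which gives most nitrate reductase in leaves, stood at 1113, 1500 and 1046 CPM in wild type and at 1142, 1024 and 1397 CPM in memory plants. Wild-type plant 23 and memory plant 33 were the high plants, the groups overlapped, and the log2 fold change was -0.04 (edgeR adjusted p = 0.961). The 95% interval of the NIA2 fold ran from 0.734 to 1.29. NIA1, the second nitrate reductase gene, stood at 210.9, 204.5 and 190.7 CPM in wild type and at 204.9, 221.1 and 263.5 CPM in memory plants. Memory plant 33 was again the highest, and the log2 fold change was 0.19 (interval of the fold 0.914 to 1.42, edgeR adjusted p = 0.655). NIR1, the nitrite reductase gene, stood at 310.8, 361.7 and 286.4 CPM in wild type and at 339.8, 288.9 and 376.1 CPM in memory plants. Its high plants were 23 and 33, as for NIA2, and the log2 fold change was 0.07 (interval of the fold 0.826 to 1.33, edgeR adjusted p = 0.906).

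NIA1 made up 16.1%, 12.2% and 15.6% of the nitrate reductase level per kb of exon in wild type and 15.4%, 18.0% and 16.1% in memory plants. The groups overlapped, with means of 14.6% ± 2.16 and 16.5% ± 1.34 (SD, n = 3 each; exact two-sided permutation p = 0.5, where the smallest possible is 0.1). No stretch of 50 bases was identical between the exons of NIA1 and NIA2, or between any other pair of the 10 loci, and no other annotated gene overlaps any of them.

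NRT1.1, the transporter and nitrate sensor gene also called NPF6.3, stood at 70.4, 76.6 and 56.7 CPM in wild type and at 64.3, 77.6 and 76.3 CPM in memory plants. The groups overlapped, with a log2 fold change of 0.10 and an interval of the fold from 0.851 to 1.35 (edgeR adjusted p = 0.848).

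Levels between genes were compared per kilobase of exon. In wild type the order was NIA2 (380.6 ± 76.4 CPM per kb), NIR1 (145.8 ± 17.5), NIA1 (64.0 ± 3.27), HHO3 (47.0 ± 4.45), NRT1.1 (30.8 ± 4.61), HHO2 (28.7 ± 1.38), HHO5 (27.6 ± 4.96) and HHO6 (11.7 ± 1.32; SD, n = 3 each). NRT1.1, HHO2 and HHO5 overlapped one another, while the other neighbours in this order did not overlap. In memory plants NIA2 (370.5 ± 59.4), NIR1 (152.7 ± 19.99) and NIA1 (72.9 ± 9.59) kept the first places, followed by NRT1.1 (33.0 ± 3.33), HHO2 (29.9 ± 3.01), HHO5 (23.2 ± 2.03), HHO3 (22.7 ± 2.81) and HHO6 (9.0 ± 1.92 CPM per kb; SD, n = 3 each). There NRT1.1 and HHO2 overlapped, as did HHO5 and HHO3, so HHO3 moved from above HHO2 to below it.

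Around these loci, 85 further genes of nitrate transport, nitrate signalling, cofactor and reductant supply, ammonium assimilation and phosphate response were read from the same test. Of these, 74 were tested, 4 fell (5.41%, against 1.37% of all genes tested that fell) and none rose in edgeR's test. The loci and lists were chosen with earlier results of these data known, so their shares are given as a description. At an unadjusted p under 0.05 there were 21 of the 74, where 12.8% of all genes tested lay under it. DESeq2 tested 82 of the 85 and called 6 lower and none higher, against 405 lower and 118 higher of all 22460 genes it tested. No gene of the 85 passed without plant 31, 32 or 33, where 34, 65 and 38 of all genes tested passed. Without plant 22 or plant 24, 2 passed each time, against 210 and 254 of all genes tested. Without plant 23, 78 were tested and 17 passed, against 1019 of all 17174 genes tested. These 17 include NRT1.8 and NRT2.6, which were not tested with all plants. The median log2 fold change was -0.10. The 4 that fell were the nitrate transporter gene NRT1.7 and 3 genes of nitrate-responsive regulators, LBD37, LBD39 and BT2.

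**Figure D4:**
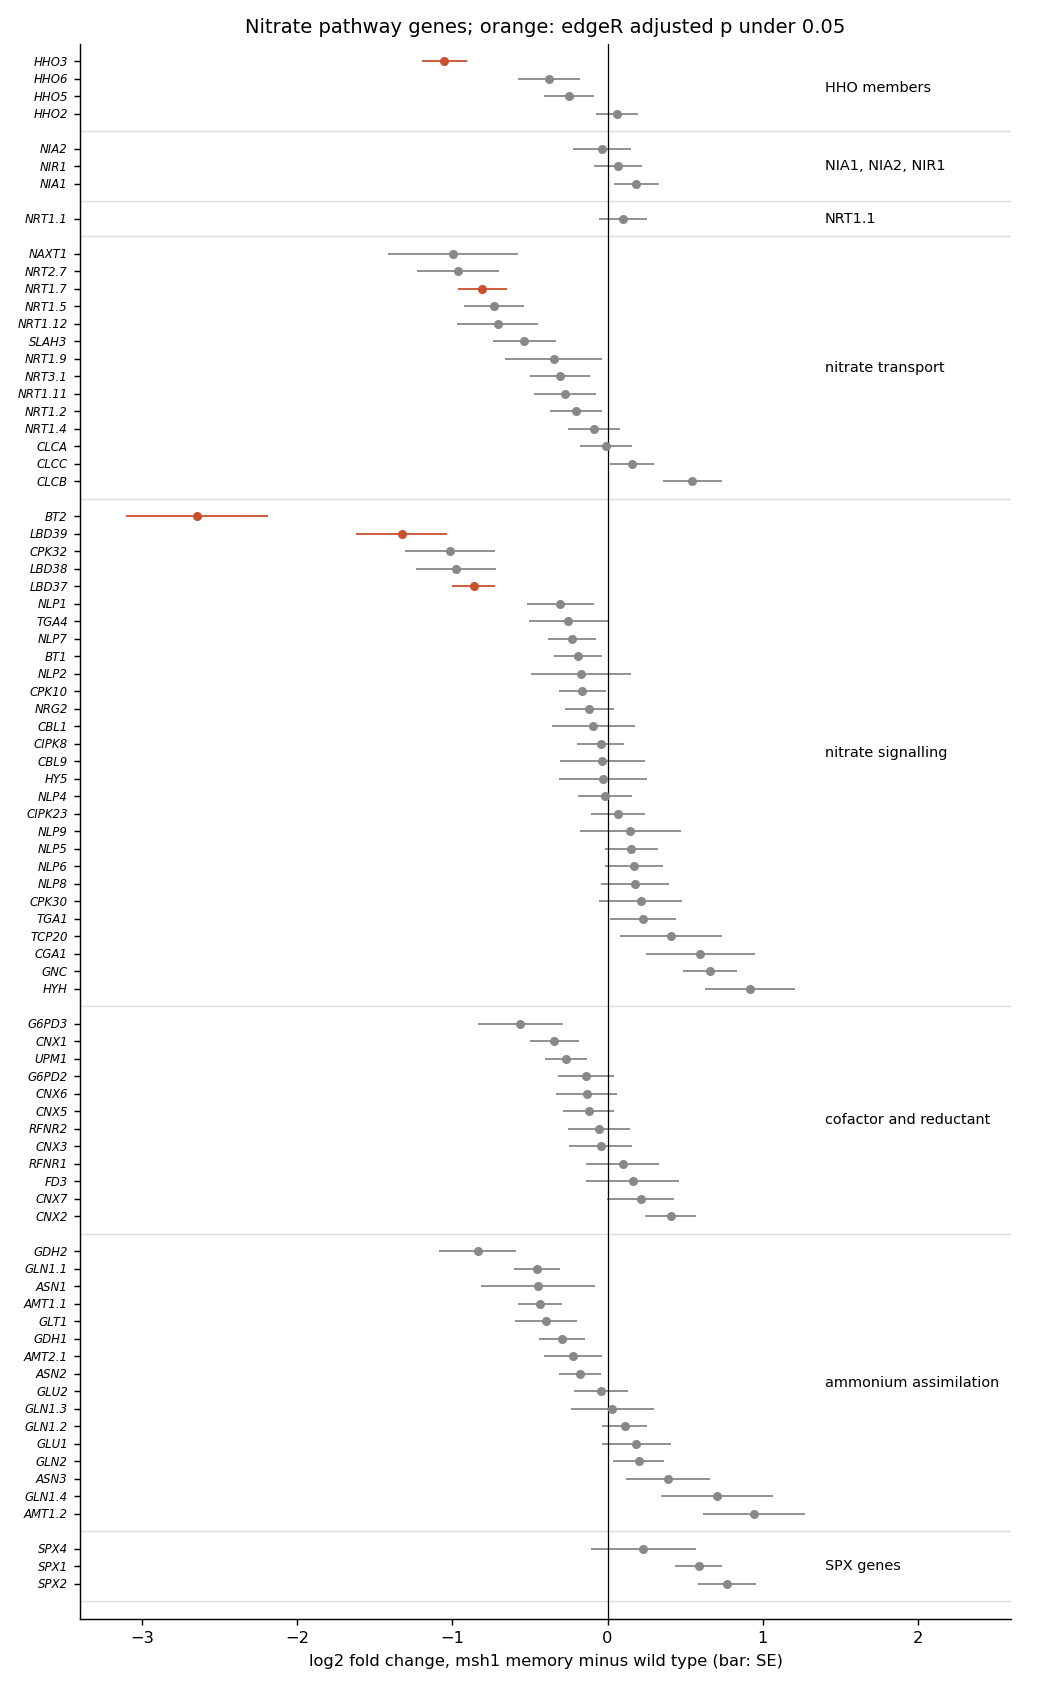
Log2 fold change (msh1 memory minus wild type; bars are SE) of every tested gene among the 10 loci and 5 of the lists around them, grouped by role; orange marks an edgeR adjusted p under 0.05. The orange points are HHO3, NRT1.7, BT2, LBD39 and LBD37, all left of 0, between -0.81 and -2.65.

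The nitrate transporter list gave 1 call. Of 22 listed, 14 were tested, 1 fell (7.14%, against 1.37% of all genes tested that fell) and none rose. Of the 14, 12 lay below 0, with a median of -0.33, where 48.8% of all genes tested lay below 0. The groups overlapped in 9 of the 14, and did not overlap for 19.7% of all genes tested. NRT1.7, which loads nitrate from old leaves into the phloem, stood at 68.2, 99.2 and 90.8 CPM in wild-type plants 22, 23 and 24 and at 51.5, 48.1 and 47.9 CPM in memory plants 31, 32 and 33. The groups did not overlap and the memory plants lay within a narrow range. Its log2 fold change came to -0.81 (SE 0.159, edgeR adjusted p = 0.0235). The call ended without plant 24, 31, 32 or 33 (edgeR adjusted p = 0.0631, 0.139, 0.146 and 0.151). Without plant 23, NRT1.5, NRT1.11 and NRT1.12 passed as lower beside NRT1.7. NRT1.8 and NRT2.6 also passed as lower there, but both were left out by the low-count filter with all plants. They entered the test only through wild-type plants 22 and 24, where they were higher, so their calls are no added support. In memory plants 31, 32 and 33 NRT1.8 had 5, 2 and 6 reads and NRT2.6 had 6, 8 and 3.

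The high-affinity transporter genes that NIGT1/HHO proteins are known to repress could not be tested. NRT2.2 and NRT2.4 had no reads, NRT2.1 had 3 reads in wild-type plant 23 and none elsewhere, and NRT2.5 had 3 reads in memory plant 31 and none elsewhere. Their partner gene NRT3.1 stood at 17.0 ± 1.22 and 13.8 ± 1.94 CPM (SD, n = 3 each) and did not pass (edgeR adjusted p = 0.565). Root markers, as given above, were at or near 0 as well. Fewer cells of a type and less RNA per cell cannot be told apart in such samples.

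In the signalling list, 28 of 29 genes were tested, 3 fell (10.7%, against 1.37% of all genes tested that fell) and none rose. Of the 28, 11 lay above and 17 below 0, with a median of -0.04, where 48.8% of all genes tested lay below 0. LBD37 and LBD39 belong to a small clade of LOB-domain repressors that nitrate induces and that restrain nitrate-responsive and anthocyanin genes. LBD37 stood at 165.0, 172.6 and 150.9 CPM in wild type and at 88.3, 82.3 and 98.0 CPM in memory plants. The groups lay far apart for this gene, at a log2 fold change of -0.86 (SE 0.138, edgeR adjusted p = 0.00846). LBD39 stood at 8.46, 9.47 and 8.18 CPM in wild type and at 3.42, 2.82 and 4.16 CPM in memory plants. Its groups did not overlap either, at a log2 fold change of -1.33 (SE 0.292, edgeR adjusted p = 0.0426), and it rests on 14 to 18 reads per memory plant. The third member of the clade, LBD38, stood at 24.8, 18.8 and 31.3 CPM in wild type and at 16.9, 12.3 and 8.78 CPM in memory plants, and is named after its values were seen. It did not pass (log2 fold change -0.98, edgeR adjusted p = 0.0886), although its groups did not overlap. It passed as lower with DESeq2 (adjusted p = 0.0438), with no low-count filter (edgeR adjusted p = 0.0368) and without plant 23 (edgeR adjusted p = 0.00384), and not under the other 11 alternatives.

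BT2, whose BTB and TAZ domain protein is known to lower NRT2 expression and nitrogen use, stood at 16.4, 5.03 and 15.1 CPM in wild-type plants 22, 23 and 24 and at 1.92, 2.21 and 1.62 CPM in memory plants. Wild-type plant 23 lay well below the other wild-type plants but above every memory plant. For BT2 the log2 fold change came to -2.65 (SE 0.457, edgeR adjusted p = 0.0139), on 7 to 11 reads per memory plant. Its relative BT1 stood at 51.2 ± 6.90 and 44.8 ± 5.82 CPM (SD, n = 3 each; edgeR adjusted p = 0.671). LBD37, LBD39 and BT2 each held 1 match to GAATC in the 300 bases around the gene start, NRT1.7 held none, and BT2 held 1 match to the evening element. None of the 4 genes overlaps another annotated gene. The calls of LBD37, LBD39 and BT2 each ended without plant 31, 32 or 33, with edgeR adjusted p-values from 0.051 to 0.199. Without plant 22 BT2 and LBD39 ended (0.0527 and 0.107), and without plant 24 LBD39 did (0.079).

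**Figure D5:**
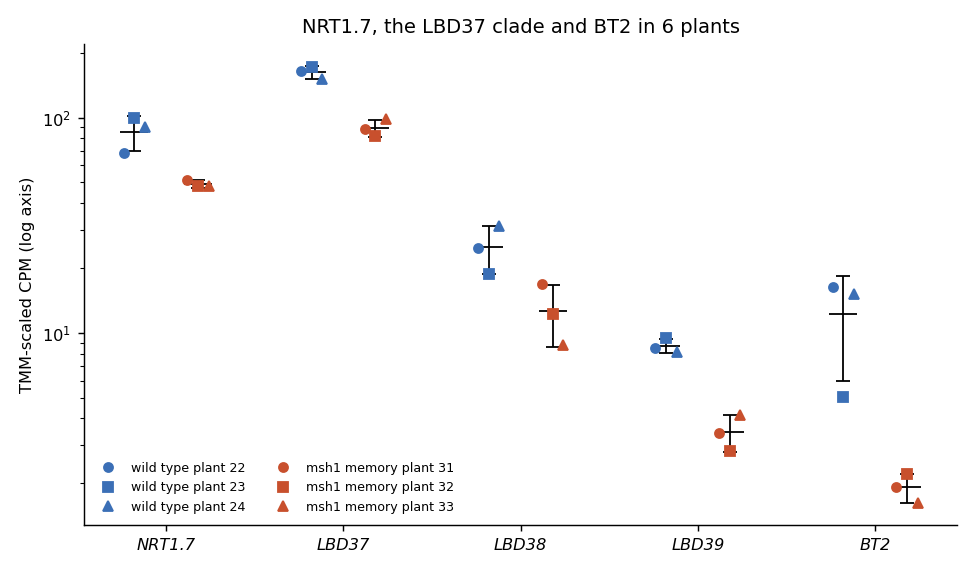
TMM-scaled CPM (log axis) of NRT1.7, LBD37, LBD38, LBD39 and BT2 in each plant, with the mean and SD of 3 plants in black. In all 5 genes the memory plants lie below the wild-type plants, and wild-type plant 23 (5.03 CPM) lies apart for BT2.

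The NLP activator genes showed no called difference in edgeR's test. NLP7, the main activator of the nitrate response, averaged 100.9 ± 18.7 CPM in the wild-type group, against 86.1 ± 3.97 CPM in the memory group (SD, n = 3 each; edgeR adjusted p = 0.599). The other 8 NLP genes had edgeR adjusted p-values of at least 0.616 where tested, and NLP3 was too low to test. CPK32, a calcium-dependent kinase gene of the signalling list, did not pass (log2 fold change -1.02, edgeR adjusted p = 0.155), but DESeq2 called it lower. NLP7, NLP3 and CPK32 are named outside the rule for named genes. GNC, a nitrate- and light-induced GATA factor gene, stood at 36.8 ± 9.23 and 58.0 ± 2.94 CPM (SD, n = 3 each) and did not pass (log2 fold change 0.66, edgeR adjusted p = 0.0889), but with library totals it passed as higher.

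Cofactor and ammonium genes gave no calls. Of 13 genes for the molybdenum cofactor, sirohaem and reductant, 12 were tested and none passed edgeR's test, 1 at an unadjusted p under 0.05 (12.8% over all genes tested). That 1 was CNX2, which acts in the first step of molybdenum cofactor synthesis, at 21.8 ± 2.45 and 28.9 ± 3.73 CPM (SD, n = 3 each; log2 fold change 0.41, edgeR adjusted p = 0.325). CNX1, which inserts molybdenum, stood at 53.0 ± 5.76 and 41.9 ± 6.84 CPM (log2 fold change -0.34, edgeR adjusted p = 0.392). DESeq2 called none of these genes either.

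Of 17 ammonium genes, 16 were tested and none passed edgeR's test or DESeq2, 4 with edgeR at an unadjusted p under 0.05 (12.8% over all genes tested). GDH2, a glutamate dehydrogenase gene, stood at 52.9, 29.0 and 56.2 CPM in wild type and at 27.4, 29.6 and 20.3 CPM in memory plants. Wild-type plant 23 lay among the memory plants, and without it the gene passed as lower (log2 fold change -1.07, edgeR adjusted p = 2.67e-04, against -0.84 and 0.155 with all plants). AMT1.1, an ammonium transporter gene, stood at 124.4 ± 16.2 and 92.2 ± 4.34 CPM (SD, n = 3 each; log2 fold change -0.43, edgeR adjusted p = 0.189).

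SPX1, SPX2 and SPX4 encode phosphate sensors, and NIGT1/HHO proteins are known to repress these genes. SPX2 stood at 13.9, 13.1 and 12.9 CPM in wild type and at 27.4, 19.9 and 20.8 CPM in memory plants. The groups did not overlap, but the gene did not pass (log2 fold change 0.77, SE 0.188, edgeR adjusted p = 0.064). SPX1 stood at 22.3, 25.9 and 23.0 CPM in wild type and at 32.7, 39.8 and 34.4 CPM in memory plants, also without overlap and without passing (log2 fold change 0.59, SE 0.152, edgeR adjusted p = 0.0814). Memory plants lay above wild-type plants in 9.52% of all genes tested. SPX4 overlapped, at 6.38 ± 2.94 and 7.51 ± 0.713 CPM (SD, n = 3 each; edgeR adjusted p = 0.839). Without plant 23 both SPX1 and SPX2 passed as higher (edgeR adjusted p = 0.0194 and 0.029).

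Markers of the clock and of touch also differed between the groups in which HHO3, NRT1.7, LBD37, LBD39 and BT2 differed. Of 8 evening-phased clock genes, 7 were tested and 6 fell, where 1.37% of all genes tested fell. The summed level of the evening genes was 596.5 to 762.5 CPM in wild type and 176.4 to 224.5 CPM in memory plants. Of 6 dawn-phased clock genes, 5 were tested and 3 rose, where 0.449% of all genes tested rose. The summed level of the dawn genes was 181.2 to 285.5 CPM in wild type and 403.5 to 448.5 CPM in memory plants. Of 8 touch and wound genes, 3 fell, against the same 1.37%. The 8 genes summed to 289.9, 224.8 and 792.5 CPM in wild-type plants 22, 23 and 24 and to between 119.5 and 139.9 CPM in memory plants. No marker of these lists was at 0 in a wild-type plant, and ELF4 was at 0 in memory plant 32. These lists were already known to differ in these plants, and their part in the nitrate genes' differences was not tested. HHO3 was highest in plant 24, where the touch genes were highest, and a link between them was not tested. Flower markers, 8 genes, summed to 5.58 to 9.28 CPM in wild type and 8.55 to 11.6 CPM in memory plants.

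The genes whose pattern over the 6 plants lay closest to HHO3 were AT1G33600, a leucine-rich repeat protein gene, the kinase gene CIPK21 and AT1G14170, an RNA-binding KH domain protein gene. Their mean-centred log2 CPM differed from that of HHO3 by a root mean square of 0.0479, 0.0827 and 0.0887 over 6 plants. AT1G33600 stood at 92.5, 91.6 and 101.3 CPM in wild type and at 43.2, 42.8 and 49.5 CPM in memory plants. With 16928 genes and 6 plants, close patterns are easily found, and the likeness is given as a description.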

How the data were processed

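RNA of 6 whole plants was sequenced from TruSeq RNA v2 libraries as 150-bp reads, per the labels' protocols. The authors deposited whole-number read counts per locus, 1 file per plant. TAIR10 and DESeq2 appear in the submitters' processing notes. Which aligner and counter were used, and whether strand was read, is not given in the sources used here. The kit does not mark strand.

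In R 4.3.3, genes passing filterByExpr (at least 10 counts, total of at least 15) were scaled with TMM and compared with edgeR 4.0.16 (robust quasi-likelihood fit, two-sided, Benjamini-Hochberg over 16928 genes, threshold 0.05). SEs were derived from each F statistic, and 95% intervals from the t distribution with the fit's degrees of freedom. The fit was tested on simulated data. Pairs of libraries within a group differed by more than sampling noise (chi-square per degree of freedom at least 3.12). The 6 plants are individuals.

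Exon lengths, positions and sequences come from RefSeq's annotation and genome of TAIR10.1; all 10 loci matched by identifier. The deposited files hold no coordinates. Levels per kb use the union of annotated exons, not the authors' transcript models.

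Named genes are all 10 loci, every called gene of a list or, with none, the 2 with the smallest p. The 3 genes most like each called locus (pseudocount 0.5 CPM) are also named, and EFM and SPX4 complete short lists. LBD38, BT1, CPK32, NLP3, NLP7 and GNC were added after their values were seen. So were NRT3.1, the NRT2 genes and the transporter genes named without plant 23. The loci and lists were chosen with earlier results of these data known, and the HHO3 ratios after seeing the values. Alternatives were 3 other scalings, 2 other filters, DESeq2 1.42.0, limma voom (limma 3.58.1), a fit without robust estimation, and leaving out each plant.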

Additional observations from a re-analysis of the deposited data

How the results depend on the processing

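No paired analysis was possible because the plant numbers 22 to 24 and 31 to 33 are not shared between the groups. HHO3 had a negative log2 fold change under all 14 alternatives, between -1.16 and -0.97, and passed under 12. HHO2, HHO5, HHO6, NIA1, NIA2, NIR1 and NRT1.1 passed under none of the 14, and NIA2, NIR1 and NRT1.1 kept their sign in 11, 12 and 13 of them. The number of called loci among the 10 was 0 to 1 when 1 plant was left out. The number of called genes among the 85 around them was 0 to 17 when 1 plant was left out (17 without plant 23, 6 of these higher), and 2 with limma voom. Over all genes, 34 to 1019 were called when 1 plant was left out, 523 with DESeq2 and 224 with limma voom. BT2 and LBD39 did not pass with limma voom (adjusted p = 0.148 and 0.07), nor did LBD39 with library totals (edgeR adjusted p = 0.0682). SPX2 passed as higher with no low-count filter (edgeR adjusted p = 0.0471). The difference in NIA1 share was 0.616 to 2.6 percentage points when 1 plant was left out. Library totals moved the median log2 fold change of all genes from 0.008 to 0.07. Leaving out a plant leaves fewer plants to test, and beyond that the cause was not tested. Depth limits HRS1, HHO1 and the NRT2 genes at or near 0 reads, and leaves BT2 and LBD39 with at most 18 reads per memory plant.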
